A study of Homo sapiens with 24 samples.

Results

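YAP1, WWTR1 (the gene of TAZ), TEAD1, TEAD2, TEAD3, TEAD4, VGLL1, VGLL3 and VGLL4 encode coactivators, DNA-binding factors and cofactors at the nuclear end of the Hippo pathway. Their H3K27ac regions were taken as every region of the 6 deposited tables for which the authors' annotation names 1 of these 9 genes as overlapped by the region or as its neighbour on either side, up to 10 kb away. This rule found 292 of 171345 regions over all tables, where the same stretch of DNA can be listed in several tables. Of these, 76 of 50284 regions were in the comparison of shANCO1 with shCTRL in 10A cells and 73 of 44790 in the same comparison in DCIS cells. A region was named for 8 of the 9 genes, and VGLL1 was named in no table.

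The data were ChIP-seq of H3K27ac, acetylation of lysine 27 on histone H3, a mark found at active promoters and enhancers. MCF10A (10A) is a non-tumorigenic human mammary epithelial line, and MCFDCIS (DCIS) is a line of the same lineage used as a model of ductal carcinoma in situ. Each line carried a lentiviral hairpin against ANCO1, the product of the ANKRD11 gene (shANCO1), or a control hairpin (shCTRL). The genotype label of the control is shGFP control, a hairpin against GFP. Knockdown and control lines alike were infected with lentivirus and selected with puromycin. The study names a single shANCO1 line for its acetylation analysis, and the labels name no hairpin, so the effect of the hairpin and that of ANCO1 loss cannot be told apart. Each of the 4 combinations had 3 immunoprecipitated libraries and 3 input libraries of chromatin that was not immunoprecipitated, in all 24 libraries in 8 groups of 3. The labels call the experiments triplicates without saying whether they were separate cultures, so the authors' p-values may measure technical spread. The tables hold 1 value per region for whole groups, and the value in each library, the spread between replicates and the depth of the libraries were therefore unknown. Cells of every group were grown in the same medium with horse serum, epidermal growth factor, hydrocortisone, insulin and cholera toxin. H3K27ac does not measure RNA, so the depletion of ANCO1 could not be checked from these values. The study reports lower ANCO1 RNA by RT-qPCR and lower ANCO1 protein in its knockdown lines. At ANKRD11 itself, 2 regions over 0.5 kb were enriched over input in 10A shCTRL and 11 over 5.4 kb in 10A shANCO1, and 0 in DCIS shCTRL and 7 over 2.9 kb in DCIS shANCO1. In the same order of groups, all listed regions over input numbered 15490, 28607, 15482 and 16692.

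In the Hippo pathway, a cascade of kinases ending in LATS1 and LATS2 phosphorylates YAP and TAZ and keeps them out of the nucleus. When the cascade is low, YAP and TAZ enter the nucleus and bind the TEAD proteins, which contact DNA at the sequence GGAATG and its relatives, often at enhancers that also bind the AP-1 factors. The VGLL proteins bind the same surface of TEAD, and VGLL4 is known to compete with YAP. The pathway restrains growth of epithelia and responds to cell density, polarity and stretch.

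Sequences are shown from 6 stretches of DNA, each the place at which its gene was called up in both lines with the lowest FDR. The sequences at their matches to GGAATG (TEAD) or TGANTCA (AP-1), read on both strands, are printed with 20 bases on each side of the match, and capitals mark the matches. They are plus-strand sequence of GRCh38. For WWTR1 they lie in an intron at chr3:149575640-149575685, chr3:149576016-149576061 and chr3:149576394-149576440, about 82 kb downstream of the start of the canonical transcript. The first of them holds a pair of TEAD matches on opposite strands, and its flanks are counted from the first match of the pair.
WWTR1 intron, TEAD pair: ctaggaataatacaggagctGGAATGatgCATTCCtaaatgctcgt
WWTR1 intron, TEAD: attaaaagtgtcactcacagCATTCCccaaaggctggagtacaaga
WWTR1 intron, AP-1: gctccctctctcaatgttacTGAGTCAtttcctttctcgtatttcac

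For TEAD1 the matches were in an intron at chr11:12770110-12770155 and chr11:12769705-12769751, 95.7 kb and 95.3 kb downstream of the start. For TEAD3 they were inside the gene at chr6:35485509-35485554 and chr6:35486175-35486221, 11.6 kb and 10.9 kb downstream of the start.
TEAD1 intron, TEAD: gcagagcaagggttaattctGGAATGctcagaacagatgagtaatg
TEAD1 intron, AP-1: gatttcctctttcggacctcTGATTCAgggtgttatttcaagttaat
TEAD3 gene body, TEAD: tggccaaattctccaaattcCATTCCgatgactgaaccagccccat
TEAD3 gene body, AP-1: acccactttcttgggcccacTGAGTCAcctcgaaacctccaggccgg

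The VGLL3 match at chr3:86991394-86991439 lay at -265 bases from the canonical start, and the VGLL4 match at chr3:11771227-11771273 lay near the 5′ end of the annotated VGLL4 span, far upstream of the canonical start. The shared stretch of YAP1, 1700 bp at chr11:102223201-102224900, held neither motif. Such matches are common: windows of the same length held GGAATG at 88.9% of all 10A regions for the WWTR1 stretch (3800 bp), 75.9% for TEAD1 (2400 bp), 91.1% for TEAD3 (4200 bp), 77.3% for VGLL4 (2500 bp), 64.7% for YAP1 and 23.2% for VGLL3 (400 bp). For TGANTCA the shares were 78.2% for WWTR1, 66.7% for TEAD1, 80.7% for TEAD3, 67.6% for VGLL4, 58.8% for YAP1 and 21.2% for VGLL3. The VGLL4 stretch held no GGAATG and the VGLL3 stretch no TGANTCA.
VGLL3 upstream, TEAD: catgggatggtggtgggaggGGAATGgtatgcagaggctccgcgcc
VGLL4 5′ end, AP-1: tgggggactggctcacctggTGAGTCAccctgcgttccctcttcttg

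The YAP1 promoter is shown because the region over it rose in 10A and was not called in DCIS. These are the 250 bases before the YAP1 start in the gene's direction (chr11:102110197-102110446, plus strand, RefSeq promoters of GRCh38.p14, in which 7 of the 9 genes matched with 13 promoters).
YAP1 promoter: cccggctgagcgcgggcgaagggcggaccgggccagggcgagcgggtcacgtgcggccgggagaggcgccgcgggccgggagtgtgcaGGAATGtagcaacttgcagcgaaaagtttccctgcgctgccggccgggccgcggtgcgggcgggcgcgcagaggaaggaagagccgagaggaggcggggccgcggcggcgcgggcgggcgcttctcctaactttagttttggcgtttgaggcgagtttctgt

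The YAP1 promoter held 1 GGAATG. It was 1 of 2 promoters among the 13 with a match, the other being that of VGLL1, and 11.9% of all 35116 RefSeq promoters held one. None of the 13 held TGANTCA, which 6.57% of all promoters held.

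The comparisons with input asked which of these genes carried H3K27ac in each group. YAP1, WWTR1, TEAD1, TEAD3 and VGLL4 had regions enriched over input in all 4 groups, and VGLL3 had them only among the 10A groups. These tables list only strongly enriched regions: 100% of the regions of 10A shANCO1, 10A shCTRL and DCIS shANCO1 passed FDR under 0.05 with direction up, and so did 15480 of the 15482 of DCIS shCTRL, which also rounds to 100%. A gene without a region is therefore not shown to lack the mark.

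Among the coactivators, YAP1 had 7 regions over 6.8 kb in 10A shCTRL and 9 over 12.2 kb in 10A shANCO1, against 2 over 2.3 kb in DCIS shCTRL and 4 over 3.2 kb in DCIS shANCO1. WWTR1 had 3 regions over 1.2 kb in 10A shCTRL, 9 over 7 kb in 10A shANCO1, 10 over 9.6 kb in DCIS shCTRL and 9 over 11.5 kb in DCIS shANCO1. In the shCTRL groups YAP1 thus had more listed bases in 10A than in DCIS, and WWTR1 had more in DCIS than in 10A. The difference between the lines was not tested, because each value is a sum over regions of a separately built table.

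Of the DNA-binding factors, TEAD1 had the most regions, 7 over 4.9 kb in 10A shCTRL, 10 over 13.4 kb in 10A shANCO1, 7 over 2.8 kb in DCIS shCTRL and 6 over 3.5 kb in DCIS shANCO1. TEAD3 had 5, 4, 2 and 4 regions in the same order of groups, over 3.1 kb, 6.4 kb, 2 kb and 4.4 kb. TEAD2 and TEAD4 had at most 1 region in any group. The TEAD2 region was listed in 10A shANCO1 (0.5 kb) and DCIS shCTRL (0.4 kb), and the TEAD4 region in each group but 10A shCTRL (0.4 to 0.6 kb).

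Of the cofactors, VGLL4 had 3 regions over 2.3 kb in 10A shCTRL and 10 over 8.5 kb in 10A shANCO1, whereas it had 9 over 4.9 kb in DCIS shCTRL and 3 over 2.6 kb in DCIS shANCO1. It was the only member besides TEAD2 with fewer listed bases in shANCO1 than in shCTRL, and this was in DCIS. VGLL3 had 7 regions over 2 kb in 10A shCTRL, 8 over 5.8 kb in 10A shANCO1 and 0 in either DCIS group. The plot of listed kilobases shows all genes and groups.

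**Figure D1:**
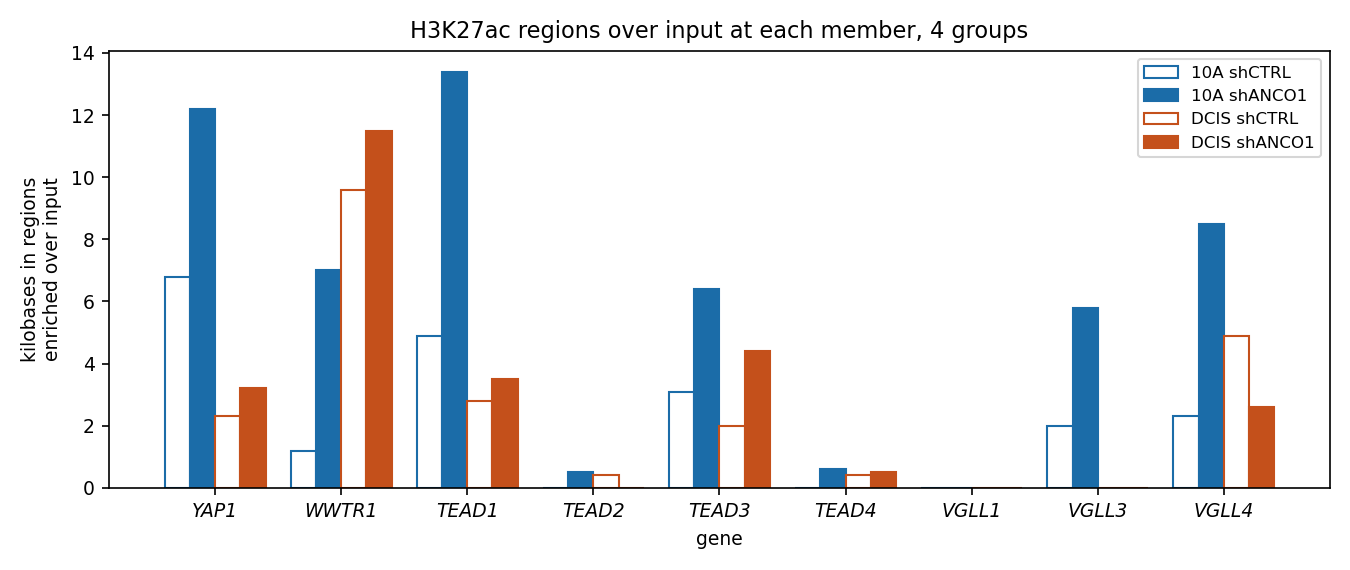
Kilobases in regions enriched over input (y axis) for each gene (x axis) in the 4 groups of H3K27ac libraries, with open bars for shCTRL and filled bars for shANCO1, and 1 value per group without error. WWTR1 had 1.2 kb in shCTRL and 7 kb in shANCO1 in 10A and 9.6 kb and 11.5 kb in DCIS, VGLL3 had bars in 10A alone, and VGLL1 had none.

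These differences ran beside differences in the whole tables. All 9 genes together had 32 regions over 20.3 kb in 10A shCTRL and 52 over 54.4 kb in 10A shANCO1, while the whole tables grew from 15490 regions over 9.04 Mb to 28607 over 25.3 Mb. In DCIS the genes had 32 regions over 22.4 kb in shCTRL and 27 over 25.7 kb in shANCO1, while the whole tables held 15482 regions over 11 Mb and 16692 over 11.9 Mb. The strongest enrichment over input differed by gene and group: at TEAD1 the highest log2 fold change over input was 8.25 in 10A shANCO1 (chr11:12676201-12678800, downstream of the start) and 7.45 in DCIS shCTRL (chr11:12694001-12694800, an intron), at YAP1 it was 8.04 in 10A shANCO1 (chr11:102223301-102225000, near the 3′ end) and 7.90 in DCIS shANCO1 (chr11:102109901-102112200, over the start). For WWTR1 it stayed between 4.29 and 5.72 in all 4 groups. For VGLL3 it was 6.84 and 6.89 in the 10A groups, and for VGLL4 it ranged from 5.26 to 7.31, the lowest of these being at the region over ATG7 beside VGLL4. In 10A shCTRL the highest VGLL3 region (6.84) and the highest VGLL4 region (6.75) held 1 window each. TEAD3 reached 6.94 in DCIS shANCO1, and in both shCTRL groups its highest region lay over the neighbour RPL10A (2.95 in 10A and 4.40 in DCIS). TEAD4 had 3.03 to 3.49, and TEAD2 had 2.24 and 2.99.

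The epithelial label was checked against marker genes. KRT5, TP63, CDH1 and EPCAM, genes of basal and epithelial cells, had regions over input in all 4 groups, and KRT14, a basal keratin, had none in any. PTPRC of leukocytes and COL1A2 of fibroblasts had 0 regions, and PECAM1 of endothelium had 1 to 6. In DCIS shCTRL the 6 PECAM1 regions covered 9.6 kb, more than those of KRT5 (4.9 kb), TP63 (3.6 kb), CDH1 (1.1 kb) or EPCAM (0.3 kb), so 1 endothelial marker went against the epithelial label there. PECAM1 also covered more than CDH1 and EPCAM in 10A shCTRL (0.7 kb against 0.5 kb and 0.3 kb). The same held in DCIS shANCO1 (2.7 kb against 1.9 kb and 0.7 kb). In both of these groups it covered less than KRT5 and TP63. In 10A shANCO1 its 0.6 kb was less than that of any of these epithelial genes. The part of PECAM1 in the results was not tested.

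The comparison of shANCO1 with shCTRL in 10A asked how H3K27ac at these genes differed once ANCO1 was depleted. It was higher at 32 of the 76 regions and lower at none, with regions called up at YAP1, WWTR1, TEAD1, TEAD2, TEAD3, VGLL3 and VGLL4. A region was called up or down where the authors' csaw FDR was under 0.05 and by the direction they gave. Of all 10A regions, 43.6% were called up and 0.225% down, so that 42.1% of the member regions is a share near the background. The median log2 fold change was 0.82 over the member regions and 0.76 over all 10A regions, and 73 of the 76 were above 0. Against that median as the zero, 3 of the 32 regions called up lay below it. Of the gene symbols with any region in 10A, 74.3% had at least 1 called up and 0.445% at least 1 called down, against 7 and 0 of the 8 members with a region. Members had a median of 11 regions per gene and all symbols a median of 2, so the members had more chances of a call.

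In DCIS, H3K27ac was higher in shANCO1 cells at 18 of 73 regions, over YAP1, WWTR1, TEAD1, TEAD3, VGLL3 and VGLL4, and none was called down. Over all DCIS regions 23.6% were called up and 4.86% down, and the member share of 24.7% was again near the background. The member median was a log2 fold change of 0.89 against 0.52 for all DCIS regions. All 18 regions called up were at 1.00 or more, and the highest was 2.24. Of the symbols with a region in DCIS, 32.2% had a region called up and 7.16% a region called down, against 6 and 0 of the 8 members, with a median of 7 regions per member and 2 per symbol. The regions nearest the threshold were at TEAD3, with FDR of 0.0424 inside and 0.0506 outside in 10A, and in DCIS at TEAD3 with 0.0466 inside and TEAD1 with 0.0527 outside.

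**Figure D2:**
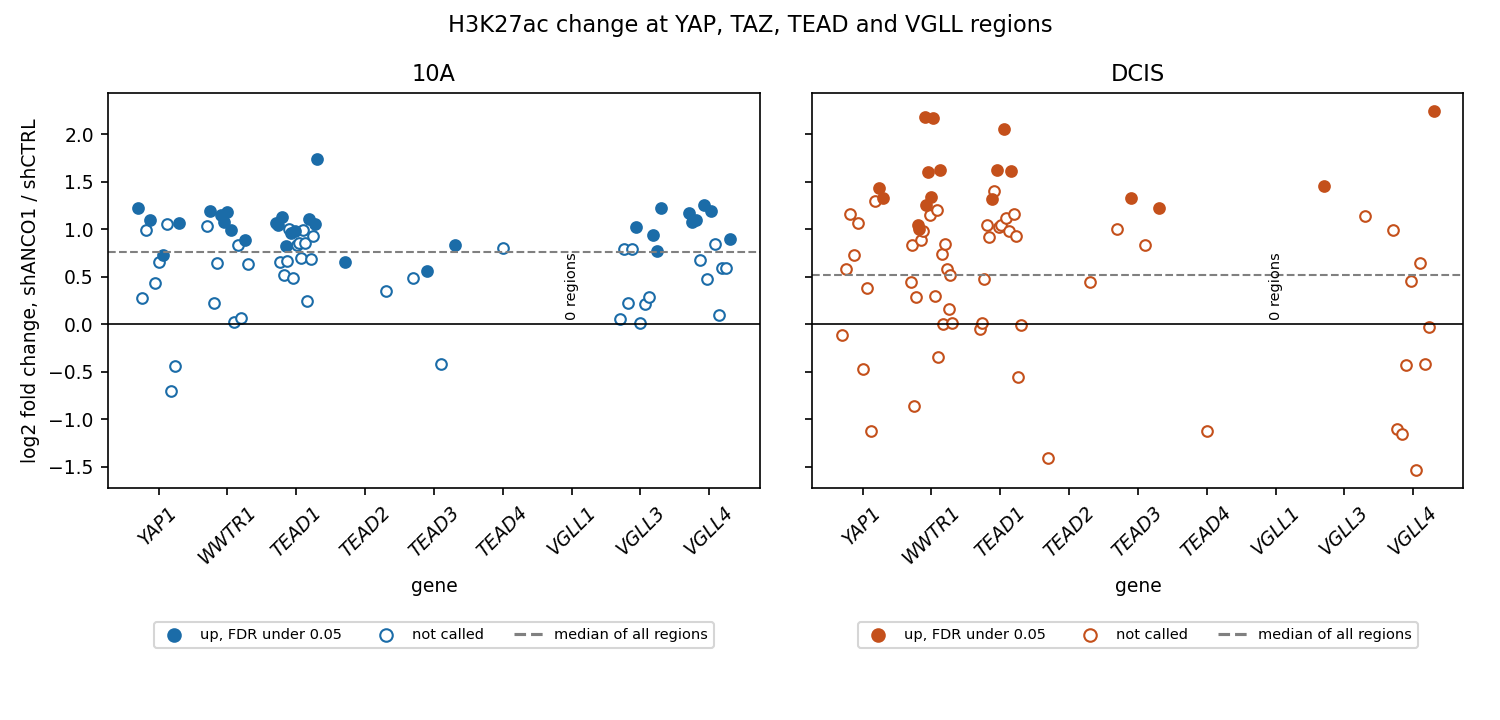
Log2 fold change of H3K27ac, shANCO1 over shCTRL (y axis), of every member region by gene (x axis), in 10A on the left and DCIS on the right. Each circle is 1 region in order along the chromosome, filled where called up, and the dashed line is the median of all regions (0.76 in 10A and 0.52 in DCIS); values in DCIS spread from -1.54 to 2.24 and in 10A from -0.70 to 1.74.

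At the starts of the genes the lines differed. The region nearest the start of the canonical transcript was called up at 7 of 8 members in 10A and at 1 of 8 in DCIS. For all protein-coding genes with a region within 5 kb of that start, the shares were 61.9% in 10A and 7.64% in DCIS. The split between the lines at gene starts was thus a feature of the whole tables, and this count was chosen after the values had been seen. In 10A the 7 called starts had log2 fold changes from 0.66 at TEAD2 to 1.22 at YAP1, and TEAD4 had 0.80 with FDR of 0.184. In DCIS the called start was that of VGLL3, at 1.46, and the others ran from -1.41 at TEAD2 to 0.83 at TEAD3. Whether a change differed between the lines was not tested, because the tables give no value for the difference.

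YAP1, the coactivator that binds TEAD, lies on the plus strand at chr11:102110447-102233424. In 10A 4 of its 11 regions were called up. The region over its start (chr11:102109401-102114400) had a log2 fold change of 1.22 with FDR of 3.2e-05, which is 0.46 above the median of all 10A regions, and 34 of its 49 windows were up. The next were an intronic region at chr11:102138101-102140200 (1.10, FDR 0.00105), one at chr11:102170101-102173500 (0.73, FDR 0.00737) and one over an exon near the 3′ end at chr11:102223201-102227500 (1.07, FDR 0.00422). The called regions thus lay at both ends of the gene and between them, and the region at 0.73 was at 0.035 below the 10A median.

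In DCIS 2 of 11 YAP1 regions were called up, and both were at the 3′ end, chr11:102223001-102224900 (1.43, FDR 0.00613) and chr11:102225301-102226700 (1.33, FDR 0.0235). The authors' annotation labels both as promoter regions of YAP1, although they lie 110487 and 112787 bases from its nearest annotated coding start. All 12 windows of the second were up. The region over the start (chr11:102109501-102113400) was at -0.11 with FDR of 0.998, and none of its 35 windows was up or down. It shared 3900 bp with the 10A region that was called up. Regions that were not called spread widely in DCIS, down to -1.12 at chr11:102197001-102198300 (FDR 0.483).

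WWTR1, the gene of TAZ, a coactivator related to YAP, lies on the minus strand at chr3:149517235-149736714. It had 6 of 13 regions called up in 10A and 8 of 25 in DCIS, the most called regions of any member in DCIS. Most were in 1 stretch of the gene far downstream of the canonical start. Of the regions between 63725 and 86325 bases downstream, 4 of 5 were called up in 10A, with log2 fold changes from 0.99 to 1.18, and 5 of 9 in DCIS, with 1.25 to 2.18. These bounds were set after the values were seen, so the counts describe where the calls lay; of all regions, 43.6% were called up in 10A and 23.6% in DCIS.

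Within that stretch the lowest FDR in 10A was 1.74e-06 at chr3:149574301-149578900 (1.15), and 20 of its 42 windows were up. This region had the lowest FDR of all 76 member regions in 10A, and the authors' annotation labels it as a promoter of WWTR1. In DCIS the region with the lowest FDR at WWTR1 was chr3:149588801-149589900 (2.17, FDR 0.000345), and the one at chr3:149572401-149573800, over a coding exon, was at 2.18 with FDR of 0.000415. All 12 windows of the latter were up in DCIS, whereas in 10A the overlapping region was at 0.64 with FDR of 0.0954. Some neighbouring regions there overlapped by 100 bases, so they are not separate measurements.

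Farther downstream, an intronic region at chr3:149554101-149555700 was called up in 10A (1.19, FDR 0.00484), as was the DCIS region overlapping it, chr3:149552501-149555300 (1.04, FDR 0.0122), and the DCIS piece beside it (1.00, FDR 0.031). On the side nearer the start, DCIS had a narrow region up at chr3:149604101-149604600 (1.62, FDR 0.0175), where 10A was at 0.83 with FDR of 0.196. The WWTR1 start also lies over WWTR1-AS1, an antisense RNA gene, and the mark does not tell the genes apart. The 10A region there (chr3:149656201-149659300) was up at 0.89 with FDR of 0.000797 and 27 of 30 windows up. In DCIS the start was split into regions at 0.84 and 0.58, with FDR of 0.345 and 0.438. No window of either was up or down.

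TEAD1, one of the DNA-binding factors and the member with the most regions in 10A, lies on the plus strand at chr11:12674421-12944737. It had 9 of 22 regions called up in 10A and 4 of 18 in DCIS. All 22 had a log2 fold change above 0 in 10A, from 0.24 to 1.74. The start region (chr11:12673501-12677300) was at 1.07 with FDR of 0.00087, and the piece next to it (chr11:12677201-12680900) at 1.04 with FDR of 0.0346. In DCIS the regions at the start were at -0.047, 0.017 and 0.48, with FDR between 0.862 and 1, and no window up or down.

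Inside the gene, TEAD1 changed in both lines at chr11:12768901-12772200 in an intron, with 0.98 (FDR 0.000615) in 10A and 2.05 (FDR 0.00228) in the overlapping DCIS region, where 14 of 19 windows were up. The intronic region that begins about 10 kb downstream of the start was also up in both lines. On the linear scale it was up 2.19-fold in 10A (log2 fold change 1.13, FDR 0.0128) and 2.5-fold in the narrower DCIS piece (FDR 0.0268). The other DCIS calls were narrow intronic regions at chr11:12696601-12697100 (1.62, FDR 0.00642) and chr11:12802401-12802700 (1.61, FDR 0.00815), where 10A was at 0.67 and 0.70 without a call. The highest TEAD1 value in 10A, 1.74, was in a narrow intronic region toward the 3′ end (chr11:12900901-12901500, FDR 0.000391). DCIS had no TEAD1 region there. At chr11:12692201-12695500 in DCIS, 6 of 32 windows were up and 1 was down, with 1.40 for the region and FDR of 0.0527, while the overlapping 10A region had 32 of 35 windows up (0.82, FDR 0.000679).

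The other TEAD genes had few regions. TEAD3, at chr6:35473597-35497079 on the minus strand, had 2 of 4 called up in each line. The region inside the gene was at 0.56 in 10A (chr6:35484501-35488800, FDR 0.0424), which was 0.21 below the 10A median, and at 1.33 in DCIS (chr6:35484601-35488900, FDR 0.000537), 0.81 above the DCIS median. Its start was called up in 10A (0.83, FDR 0.0044), and in DCIS the part just downstream of the start was at 0.83 with FDR of 0.225 while the part upstream, which the annotation also gives to TULP1, was up at 1.22 with FDR of 0.0466. The fourth TEAD3 region lay over RPL10A and MIR7111 and reached TEAD3 only as a neighbour (0.49 in 10A and 1.00 in DCIS, FDR 0.0506 and 0.933).

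TEAD2 (chr19:49340595-49362457) shares its start with DKKL1. The region there was up in 10A, at 0.66 with FDR of 0.0153, which was 0.11 below the 10A median. In DCIS it was at -1.41 with FDR of 0.32 and no window up or down. TEAD4 (chr12:2959330-3040676) had a single region over its start, at 0.80 in 10A (FDR 0.184) and -1.12 in DCIS (FDR 0.883). Neither line had a window of it up or down.

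VGLL4, the member known to compete with YAP for TEAD, lies on the minus strand at chr3:11556069-11771350 and has several starts. In 10A 6 of 12 regions were called up. The region over the canonical start (chr3:11641201-11644700) was at 1.19 with FDR of 2.13e-06 and 26 of 34 windows up. The regions at a downstream start, chr3:11567601-11569900 and chr3:11570601-11571400, were at 1.08 and 1.10, with FDR of 0.000609 and 0.0253. The highest value was 1.25 at chr3:11599801-11601800 (FDR 0.0239). A region outside the gene at chr3:11548901-11549800 was also up (1.17, FDR 0.009), but it overlaps ATG7 and reached VGLL4 only as a neighbour.

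In DCIS 1 of 10 VGLL4 regions was called up. It was the region at the 5′ end of the annotated gene span, chr3:11770001-11772500, at 2.24 with FDR of 7.37e-05, the highest value and the lowest FDR of all 73 member regions in DCIS. The annotation gives it to TAMM41 as well. The 10A region there was at 0.90 with FDR of 0.0113. At the canonical start DCIS was at 0.64 with FDR of 0.734.

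VGLL4 also had the lowest value of all member regions in DCIS, where 6 of its 10 regions were below 0. At chr3:11636701-11640500, just downstream of the canonical start, the log2 fold change was -1.54, 3 of 32 windows were down and the FDR was 0.0558, so it was not called. The regions at chr3:11590201-11592900 and chr3:11581101-11583200 were at -1.16 and -1.10, with FDR of 0.164 and 0.265. In the tables against input, chr3:11592001-11592700 and chr3:11636901-11637200 were listed in DCIS shCTRL, at 7.13 and 6.78 on the log2 scale, and DCIS shANCO1 had no VGLL4 region at either place. The tables share libraries, so these are not separate measurements.

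VGLL3, a cofactor of TEAD, lies on the minus strand at chr3:86876388-86991149. In 10A 4 of 11 regions were called up, 3 of them over the start or upstream of it. The start region (chr3:86989201-86992400) was at 0.94 with FDR of 0.0106, and the upstream pieces at chr3:86992301-86995400 and chr3:86995801-86997200 were at 0.77 and 1.22. An intronic region at chr3:86973001-86974200 was at 1.02 with FDR of 0.0206, and it overlaps LOC105377196. In DCIS only 2 narrow VGLL3 regions were tested, and chr3:86991201-86991600 was up at 1.46 with FDR of 0.0197 on 3 of 3 windows. The other was at 1.14 with FDR of 0.0775.

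VGLL1, a cofactor of TEAD on the X chromosome (chrX:136532215-136556807), had no region in either comparison, so no change at VGLL1 can be given for these cells.

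**Figure D3:**
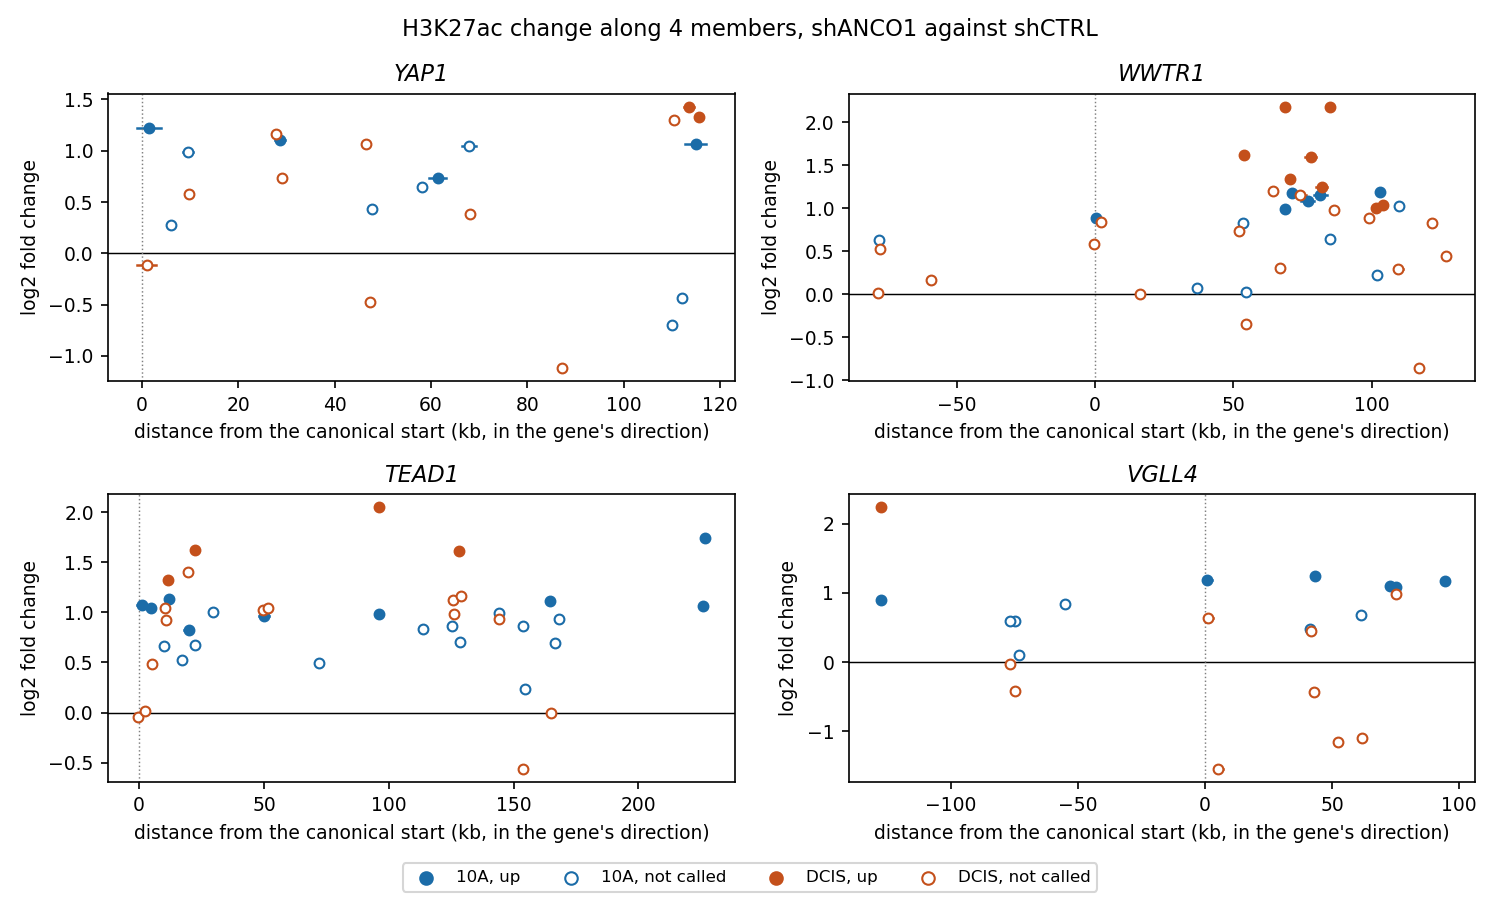
Log2 fold change of H3K27ac, shANCO1 over shCTRL (y axis), against distance from the canonical start in kb (x axis) for YAP1, WWTR1, TEAD1 and VGLL4. Each horizontal line spans 1 region and its circle is filled where the region was called up; near the starts of YAP1 and TEAD1 the 10A regions stood at 1.22 and 1.07 and the DCIS regions near 0, while inside WWTR1 and TEAD1 the called DCIS regions reached 2.18 and 2.05.

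The same places were then set side by side in both lines. Of the 10A member regions, 48 overlapped a DCIS region of the same gene by at least 1 bp. Each was paired only with the DCIS region that shared the most bases. Of these pairs, 11 were called up in both lines, 14 in 10A only, 4 in DCIS only and 19 in neither. The TEAD1 region at chr11:12801801-12804000 is among the 19, though it also overlaps the DCIS region called up at chr11:12802401-12802700. One WWTR1 pair, with the 10A region chr3:149556001-149556200, is among the 4 up in DCIS only. Its DCIS region, chr3:149555201-149558000, also overlaps the 10A region called up at chr3:149554101-149555700. The TEAD1 region of DCIS at chr11:12827401-12829100 is in 2 of the pairs. Among all 29259 10A regions that overlapped a DCIS region, 16.3% were up in both, and the member share was 22.9%. Of all such 10A regions that were up, 32% had an up region in DCIS, against 11 of 25 (44%) for members. WWTR1 held 5 of the 11 pairs, which are neighbours on 1 chromosome and in part overlap each other. TEAD1 held 2, and YAP1, TEAD3, VGLL3 and VGLL4 held 1 each. The lines were compared with separate controls, so no library is shared between the values of a pair.

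Pairs with and without a promoter label of the member differed in the DCIS value. A promoter label is the authors' annotation of the region as a promoter of the gene, and at WWTR1 it reached regions as far as 121125 bases from the nearest annotated coding start. Without the label, 22 pairs had a median log2 fold change of 0.91 in 10A and 1.14 in DCIS. With it, 26 pairs had 0.87 in 10A and 0.46 in DCIS. Member pairs were split by a label of the member in either line. All paired regions were split by a label of any gene in 10A, so the 2 splits are not alike. Without the label, all paired regions had medians of 0.77 and 1.11, and with it 0.81 and 0.45. Member pairs ran the same way as the whole tables.

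**Figure D4:**
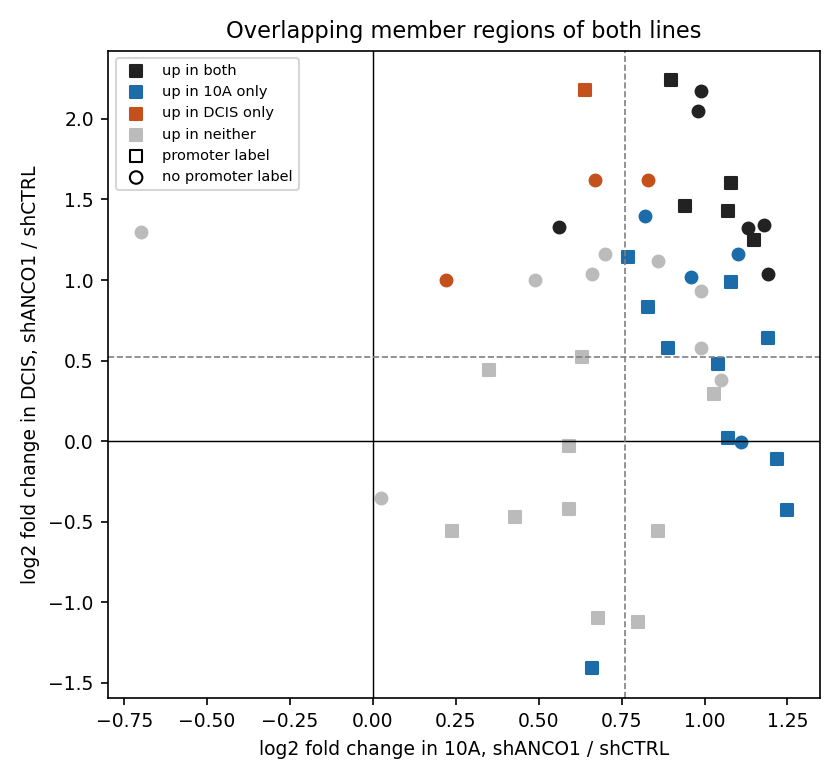
Log2 fold change in 10A (x axis) and DCIS (y axis), shANCO1 over shCTRL, for the 48 pairs of overlapping member regions. Squares carry a promoter label and circles do not, colours give the calls, and dashed lines are the medians of all regions; the 11 pairs up in both lines lie above 1 in DCIS, and promoter-labelled pairs reach down to -1.41 there.

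The calls by label were near the background in both lines. Here member regions were sorted by a label of the member, and all regions by a label of any gene. In 10A, 17 of 35 promoter-labelled member regions were up, where 50.8% of all promoter-labelled regions were, and 15 of 41 others were up, where 37.2% of the rest were. In DCIS 8 of 35 promoter-labelled member regions were up against 16.3% of all, and 10 of 38 others against 31.3%.

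The wider pathway was read from fixed lists, 26 genes called upstream and 22 genes known as targets. Beside genes acting upstream of YAP and TAZ, the first list holds VGLL2, of the VGLL family. VGLL2 had 0 regions in either line. In 10A 98 of 220 regions of the upstream genes and 94 of 208 of the target genes were called up, none was down, and the medians were 0.80 and 0.78. The lowest FDR in 10A was at STK3 (1.70, FDR 5.55e-06) and STK4 (1.22, FDR 3.21e-05), the MST kinases at the top of the cascade, and at FRMD6 (1.08, FDR 8.45e-05), an activator of it. Among targets it was at NT5E (1.34, FDR 3.77e-08), DOCK5 (1.38, FDR 2.52e-06) and MYOF (1.64, FDR 2.82e-06). The shares of 44.5% and 45.2% were near the 43.6% of all 10A regions.

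In DCIS 65 of 173 regions of the upstream genes and 61 of 182 of the target genes were up, which is 37.6% and 33.5% beside the 23.6% of all regions. The medians were 0.90 and 0.89 beside 0.52. AMOTL1, which binds YAP, was at 3.92 (FDR 1.54e-09), FRMD6 at 2.67 (FDR 3.03e-09) and STK3 at 4.41 (FDR 5.23e-09, a region of 3 windows). Of the targets, ASAP1 was at 5.05 (FDR 3.38e-13), NT5E at 4.37 (FDR 3.58e-09) and NUAK2 at 4.05 (FDR 1.05e-08, a region beside the gene). The NT5E region held 1 window and the ASAP1 region 39, all of them up, though each log2 fold change is that of 1 representative window. The lists share AMOTL2, LATS2 and PTPN14, and regions of a gene are not independent of each other.

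Some regions of the lists were down in DCIS, 5 upstream and 6 among targets, which is 2.89% and 3.3% beside the 4.86% of all DCIS regions called down. The genes with these regions were chosen for naming after their values were seen. ANKRD1, a classical YAP target, had 2 regions and both were down, at -1.70 over the gene (FDR 0.018) and -2.65 beside it (FDR 0.000387). STK3, NF2, LIMD1 and RBMS3 had regions down as well as up, as did PTPN14, which is on both lists.

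In the 500 bp at the middle of each region, GGAATG was found in 23 of 76 member regions in 10A (30.3%) and 27.9% of all 10A regions, and in 25 of 73 in DCIS (34.2%) and 27.1% of all. TGANTCA was found in 22 of 76 in 10A (28.9%) and 26.1% of all, and in 25 of 73 in DCIS (34.2%) and 21.5% of all. The 2 motifs can share 2 bases, and 1 pair of matches did so over both lines. Of the regions called up in DCIS, 6 of 18 held GGAATG and 5 of 18 held TGANTCA, while among those not called up 19 and 20 of 55 did. Of all DCIS regions called up, 30.1% held GGAATG and 34% held TGANTCA. In 10A, GGAATG was in 6 of the 32 regions called up and 17 of the 44 others, and TGANTCA in 11 of the 32 and 11 of the 44, beside 27.3% and 28% of all 10A regions called up. The matches are descriptions of the DNA and were not tested.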

How the data were processed

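H3K27ac ChIP-seq was analysed from 6 region tables, with 3 libraries in each group. Per the study's methods and processing notes, the authors mapped the libraries (BWA, Rsubread; GRCh38), used SAMtools to discard duplicate reads, and ran csaw for differential binding. Each region has a log2 fold change of 1 representative window, deposited by the authors. The p-value and FDR of each region were also deposited; the FDR equalled the Benjamini-Hochberg value over the regions of its table (within 1e-6). The deposited numbers of windows, taken as other values, count tested windows and not reads. These are the authors' own comparisons, and the files used hold no other values; normalization, window filter and merging were not given in the sources used here. Normalization sets the zero of every fold change, and 91.8% of 10A regions and 66.9% of DCIS regions were above it.

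Regions were called at FDR under 0.05 by the authors' direction. Named genes were all 9 members, by their start region, their region with the lowest FDR and that with the highest enrichment over input, and for each list and line the 3 genes with the lowest FDR. The pair used for printed sequences was, of those up in both lines, the one whose larger FDR of the 2 lines was lowest. Members and lists were chosen with earlier results of these data known. Distances and exons are from GENCODE release 44, and no region ran past its chromosome end. Scripts used Python 3.11.15, pandas 2.3.3, numpy 2.4.6 and pysam 0.24.0, and were tested on simulated tables.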

Additional observations from a re-analysis of the deposited data

How the results depend on the processing

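Of 74 counts and ratios recomputed under other settings, 56 stayed within 1.5 times the reported value and 18 did not; for single genes 117 of 144 did. At FDR under 0.01, 18 of 76 member regions were up in 10A and 10 of 73 in DCIS, beside 25.5% and 16.4% of all regions. At that threshold 4 pairs were up in both lines, and 64 upstream-list and 62 target-list regions were up in 10A. In DCIS 2 and 2 regions of the lists were down, beside 2.72% of all regions. At FDR under 0.1, 1 member region (at VGLL4) was down in DCIS, beside 6.45% of all regions. A log2 fold change of at least 1 left 20 up in 10A, beside 25.7% of all regions. At least 1 log2 unit from the table median left 0 in 10A and 8 in DCIS, where 1.14% and 16.3% of all regions remained. With reciprocal overlap of at least 50%, 6 of 28 pairs were up in both lines. Neither for this count nor for the pairs at FDR under 0.01 was the share over all regions computed. These pair counts therefore cannot be read against a background. Over input, FDR under 1e-10 left 17 regions in 10A shCTRL and 17 in DCIS shCTRL, and regions of at least 5 windows numbered 26 in 10A shANCO1, 8 in 10A shCTRL, 14 in DCIS shANCO1 and 11 in DCIS shCTRL. Direction by sign, the overlap column alone and GENCODE gene bodies with 5 kb upstream kept the counts of members up in each line within 1.5 times. The stricter settings keep fewer regions by construction.

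No paired analysis was possible because the tables hold no value per library. No replicate was left out for the same reason, and the limits set by depth and replicate spread are unknown.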
